A study of Gossypium hirsutum with 6 samples.

Results

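NHX1, Di19-1, Di19-2, pldd, MAPKKK and MPK14, 6 genes that carry or relay salt and drought responses, were followed in cotton leaves during drought. They were taken as every probe set (a group of probes that reports 1 target) that the array's gene table pairs with 1 gene alone whose RefSeq older names include 1 of these symbols. This gave 6 genes of the 520 that the table pairs with probe sets in this way, and 7 probe sets of the 24029 tested. The genes were selected on earlier results of the same drought and control values, so that contrast is given for them as a description with no test of its own.

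The plants were upland cotton (Gossypium hirsutum) of the cultivar Bikaneri Nerma, grown in adjacent open-field plots. Drought leaves came from plots left without water from peak flowering and sampled 18 to 19 days later, at a soil moisture of 19.5%, which is 50% of the control plots' value, and a rain shelter covered these plots during rain. Control leaves came from the watered plots; each arm had 6 plots, and nothing in the labels says which plots an array represents. Total leaf RNA was hybridised to 6 Affymetrix cotton arrays, 3 for drought and 3 for control, which the labels call biological replicates.

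Each of the 6 genes has a known place in stress signalling. NHX1 is a vacuolar antiporter that moves sodium and potassium ions into the vacuole in exchange for protons, a gradient kept up by the vacuolar proton pumps. Di19-1 and Di19-2 belong to a plant family of zinc finger proteins named in Arabidopsis after a drought-induced transcript. The symbol pldd stands for phospholipase D delta, an enzyme that cuts membrane phospholipids and releases phosphatidic acid, a lipid messenger; in Arabidopsis it acts in responses to abscisic acid, the hormone of water shortage. MAPKKK and MPK14 stand at the top and at the bottom of the MAP kinase cascade, in which a MAP kinase kinase kinase activates a MAP kinase kinase, and this in turn activates a MAP kinase.

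The values are log2 signals that were centred per probe set before deposit, so that the median of the 6 arrays is 0 for every probe set (the largest departure was 5e-07). They give differences between arrays and no level of expression, and the level of 1 gene cannot be set against that of another. The direction is read as a higher value for more signal, which the table does not state. For a probe set whose groups do not overlap, the centring also makes the lowest drought value and the highest control value equal in size with opposite signs, so that symmetry is no measurement. In RNA from whole leaves, a change in RNA per cell and a change in the share of cells of a type cannot be told apart.

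On each of the 7 probe sets the lowest of the 3 drought arrays was above the highest of the 3 control arrays, a separation that 40.1% of all tested probe sets showed in the same direction. All 7 also passed the adjusted p threshold of 0.05 in the limma fit over all tested probe sets as higher in drought, which 35.3% of the tested probe sets did; 20.4% passed as lower and 55.7% in either direction. At least 1 log2 unit (2-fold) higher were 4 of the 7, the probe sets of NHX1, pldd and MAPKKK, against 6.63% of all tested. Since the genes were selected on this contrast, nothing is read from these counts. The plot of the values on each array shows the gap between the groups, which is wide for NHX1 and narrow for Di19-2.

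**Figure D1:**
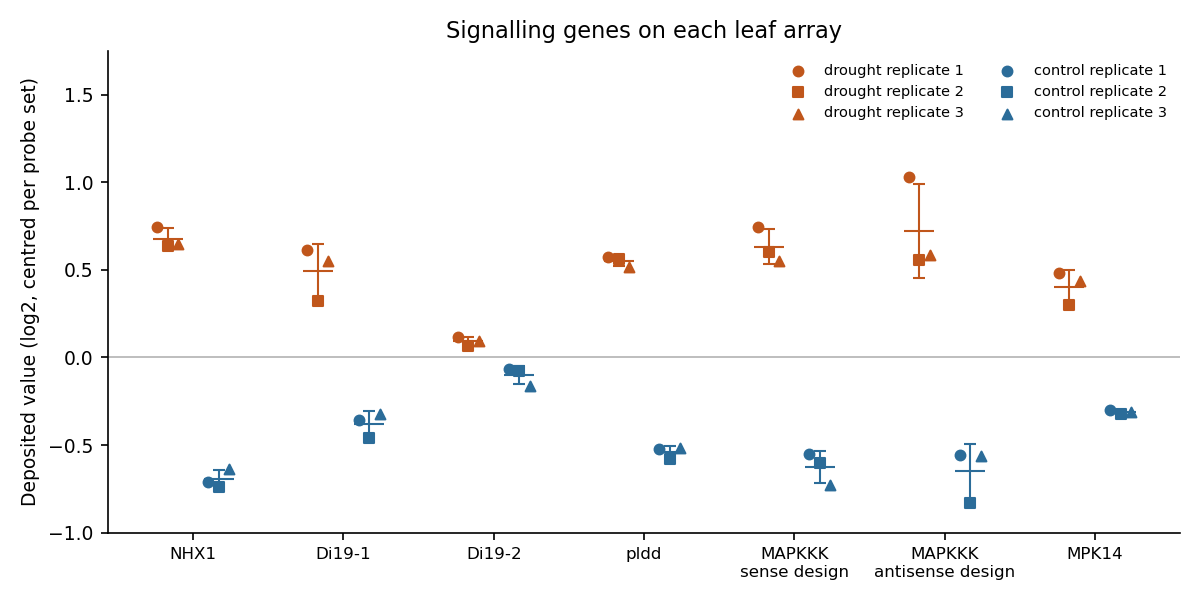
Deposited log2 values, centred per probe set, of the 7 probe sets on the 3 drought and 3 control arrays; points are arrays, and bars give the mean and SD of a group. Drought arrays lie above control arrays on every probe set, by 1.27 between the closest arrays for NHX1 and by 0.13 for Di19-2.

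NHX1, the vacuolar antiporter, was read from 1 probe set (locus LOC107891968). Its values were 0.75, 0.64 and 0.65 in drought replicates 1, 2 and 3, against -0.71, -0.74 and -0.64 in control replicates 1, 2 and 3. The arrays of each group stood close together and far from the other group: the mean was 0.68 ± 0.06 in drought and -0.70 ± 0.05 in control (SD, n = 3 each). The difference was 1.37 log2 units (SE 0.07), a 2.59-fold higher signal in drought. Over the 9 pairings of a drought array with a control array the fold ran from 2.42 to 2.80. This was the largest difference of the 6 genes when each was read from its first probe set, taken in an order that uses no value.

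The phospholipase gene pldd (LOC107945790) had the smallest spread of the 6 genes within groups when both groups were pooled, though not in either group alone. Its values were 0.57, 0.56 and 0.52 in drought replicates 1, 2 and 3, against -0.52, -0.58 and -0.52 in control replicates 1, 2 and 3. Drought averaged 0.55 ± 0.03 and control -0.54 ± 0.03 (SD, n = 3 each), a difference of 1.09 (SE 0.07), or 2.13-fold. The pairings gave folds from 2.05 to 2.22. In log2 units they ran from 1.04 to 1.15, the narrowest such range among the 6 genes. Its residual SD, the spread left within the groups, was 0.0314, and 97.7% of the tested probe sets had a larger one.

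For Di19-1 (LOC107888326) the values were 0.61, 0.32 and 0.55 in drought replicates 1, 2 and 3, against -0.36, -0.46 and -0.32 in control replicates 1, 2 and 3. Drought replicate 2 was the low array of its group and set the gap of 0.64 to the nearest control array. The means were 0.49 ± 0.15 in drought and -0.38 ± 0.07 in control (SD, n = 3 each), and the difference was 0.87 (SE 0.09), or 1.83-fold, with pairings from 1.56-fold to 2.10-fold. Without drought replicate 2 it was 0.96.

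Di19-2 (LOC107887150), of the same zinc finger family, had values of 0.12, 0.06 and 0.09 in drought replicates 1, 2 and 3, against -0.06, -0.07 and -0.16 in control replicates 1, 2 and 3. All 6 arrays lay within 0.28 log2 units, and the groups were separated by 0.13. Drought averaged 0.09 ± 0.03 and control -0.10 ± 0.05 (SD, n = 3 each); the difference was 0.19 (SE 0.07), or 1.14-fold. That is close to the median difference of 0.12 over all tested probe sets. Its place past the threshold held with robust variance moderation and was lost in the other 11 alternatives run, among them each of the 6 that leave out 1 array (0.16 to 0.21). The difference was 0.10 with every array centred on its median and -0.06 once each array was centred on its hybridisation spike-ins, control RNAs added in fixed amounts.

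The Di19 genes could be compared within each array, where any offset of a whole array cancels. The value of Di19-1 minus that of Di19-2 was 0.49, 0.26 and 0.46 in drought replicates 1, 2 and 3, against -0.29, -0.38 and -0.16 in control replicates 1, 2 and 3. The groups did not overlap, and the drought response of Di19-1 exceeded that of Di19-2 by 0.68 log2 units (SE 0.10). As a contrast of genes selected on their response, this too is a description. It sets 1 probe set of each gene against the other, and its SE does not cover how probe sets differ.

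MAPKKK (LOC107959605), the kinase at the top of the cascade, was the only 1 of the 6 genes with 2 probe sets. On the sense-design probe set the values were 0.74, 0.60 and 0.55 in drought replicates 1, 2 and 3, against -0.55, -0.60 and -0.73 in control replicates 1, 2 and 3. The means of 0.63 ± 0.10 in drought and -0.63 ± 0.09 in control (SD, n = 3 each) differed by 1.26 (SE 0.08), or 2.39-fold. The groups were 1.10 apart at their closest arrays.

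On the antisense-design probe set of MAPKKK, so marked in its ID, the values were 1.03, 0.55 and 0.58 in drought replicates 1, 2 and 3, against -0.55, -0.83 and -0.56 in control replicates 1, 2 and 3. Drought replicate 1 and control replicate 2 stood apart from the other arrays of their groups. The difference was 1.37 (SE 0.14), or 2.59-fold, with means of 0.72 ± 0.27 in drought and -0.65 ± 0.16 in control (SD, n = 3 each). Its residual SD of 0.22 was the largest of the 7, and 8.82% of the tested probe sets had a larger one. Antisense minus sense values were 0.29, -0.05 and 0.03 in drought, against -0.0037, -0.23 and 0.17 in control, so the MAPKKK probe sets differed by array with overlapping groups. Which strand the antisense design reads is not shown by these data.

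MPK14 (LOC107905456), a MAP kinase, had values of 0.48, 0.30 and 0.43 in drought replicates 1, 2 and 3, against -0.30, -0.32 and -0.31 in control replicates 1, 2 and 3. Control arrays were nearly equal and drought arrays were more spread, with means of 0.40 ± 0.09 in drought and -0.31 ± 0.01 in control (SD, n = 3 each). The difference was 0.72 (SE 0.07), or 1.64-fold, and the pairings ran from 1.52-fold to 1.74-fold. The response of MAPKKK on its sense-design probe set exceeded that of MPK14 by 0.54 (SE 0.08) within arrays, with values of 0.26, 0.30 and 0.12 in drought against -0.25, -0.28 and -0.42 in control. This is again a description, of genes selected on their response and read from 1 probe set each.

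From the largest to the smallest difference the order was NHX1, MAPKKK, pldd, Di19-1, MPK14 and Di19-2, each on its first probe set. It was the same in all 13 settings run, the deposited values included. Centring whole arrays shifts all genes alike, and a replicate block or robust variance moderation leaves the differences as they are. Only quantile normalization and the 6 fits that leave out 1 array could have changed the order. NHX1 and MAPKKK did not differ beyond their spread: the value of NHX1 minus that of MAPKKK was 0.0029, 0.03 and 0.10 in drought, against -0.16, -0.14 and 0.09 in control, an excess of 0.11 (SE 0.09) with overlapping arrays. For the other neighbours in the order the arrays did not overlap. MAPKKK exceeded pldd by 0.17 (SE 0.08), pldd exceeded Di19-1 by 0.22 (SE 0.10), Di19-1 exceeded MPK14 by 0.16 (SE 0.05), and MPK14 exceeded Di19-2 by 0.52 (SE 0.05). Of all 15 pairs of the 6 genes, 14 had arrays that did not overlap, the exception being NHX1 with MAPKKK. In each pair the gene with the larger difference on these same arrays was put first, and the pairs share genes. The genes were also selected on this contrast, so the count is a description and nothing is read from it. Probe sets of 1 gene can differ as much: the sense-design ones of MPK3 (LOC107959059) gave differences from 0.59 to 1.46. The SE between genes covers the arrays and not the choice of probe set, so the order is one of probe sets.

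Among 246 genes with an older name, ranked by increase on their first probe sets, NHX1 was 18th, MAPKKK 20th, pldd 21st, Di19-1 30th, MPK14 38th and Di19-2 81st. Over all tested probe sets, 3.60% had a larger difference than NHX1, 4.26% than the sense-design MAPKKK probe set, 5.76% than pldd, 8.47% than Di19-1, 11.6% than MPK14 and 42.0% than Di19-2. Di19-2 thus lay in the bulk of the distribution and the other 5 genes in its upper tail, as the plot of all differences shows. The median over the 7 probe sets was 1.09.

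**Figure D2:**
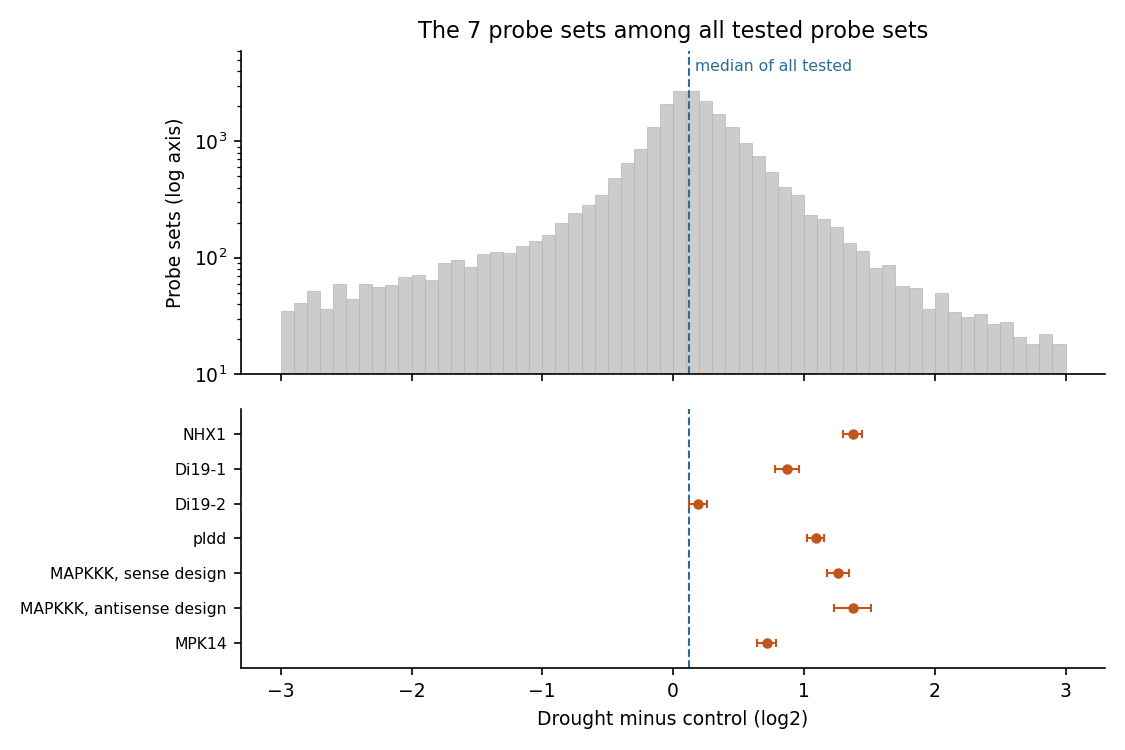
Upper panel, histogram of the drought minus control difference (log2) of the 24029 tested probe sets on a log axis, without 672 that lie beyond 3 log2 units in either direction; lower panel, the same difference of the 7 probe sets with its SE (n = 3 arrays per group). The dashed line is the median of all tested probe sets, 0.12, near which Di19-2 lies, while the other probe sets lie between 0.72 and 1.37.

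Arrays of a group did not weigh equally on the 6 genes. Drought replicate 1 was the highest of the drought arrays on all 7 probe sets, and it was the highest for 54.5% of all tested probe sets. Its median over all tested probe sets was 0.08, against 0.03 and 0.05 in drought replicates 2 and 3. After each array was centred on its median, drought replicate 1 was the highest on 5 of the 7, the exceptions being Di19-2 and pldd. The share of all tested probe sets after that centring was not counted, so nothing is read from the 5. Without drought replicate 1 the differences were 1.34 for NHX1, 1.08 for pldd, 0.81 for Di19-1, 0.68 for MPK14, and 1.20 and 1.22 for the sense-design and antisense-design probe sets of MAPKKK.

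Scaling of the arrays moved the size of every difference. Array medians of the hybridisation spike-ins were 0.25 higher in drought than in control, and centring on them lowered the differences to 1.13 for NHX1, 1.01 for the sense-design MAPKKK probe set, 0.84 for pldd, 0.63 for Di19-1 and 0.47 for MPK14. Quantile normalization gave 1.79, 1.58, 1.26, 0.90 and 0.64 for the same genes in the same order. It was run on values already centred per probe set and not on array signals, so these sizes are not those of an ordinary normalization. NHX1, pldd, Di19-1, MPK14 and both MAPKKK probe sets stayed higher and past the threshold in these and all other settings run. Of the 24029 tested probe sets, 8485 passed as higher as deposited and 3989 to 8444 in the alternatives. The genes were selected on this contrast and every setting uses the same arrays, so nothing is read from their staying past the threshold. The share of higher among all called probe sets was 63.4% as deposited, 57.7% with reporters at 0, 53.1% with array medians at 0, 50.9% after quantile normalization and 35.5% with hybridisation spike-ins at 0.

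**Figure D3:**
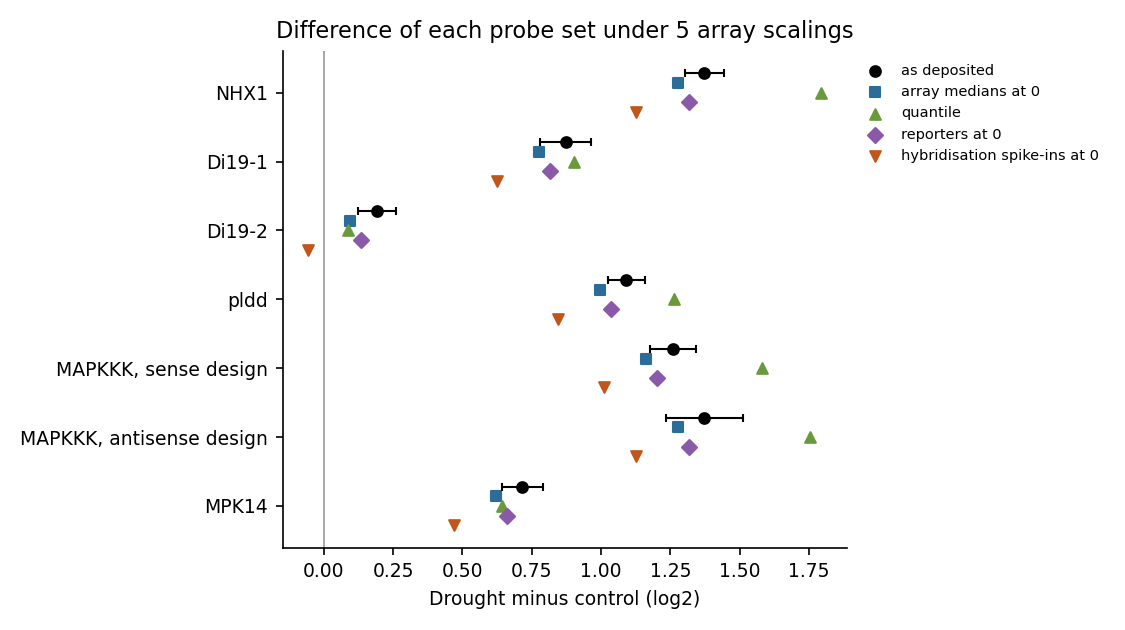
Drought minus control difference (log2) of each of the 7 probe sets as deposited, with its SE (n = 3 arrays per group), and under 4 other array scalings. Differences were smallest with the hybridisation spike-ins at 0, where Di19-2 was -0.06 and MPK14 0.47. NHX1 reached 1.79 after quantile normalization of the centred values.

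The probe sets differ in how they may cross-react. Those of NHX1, Di19-1 and pldd and the sense-design set of MAPKKK carry the suffix that Affymetrix gives to probes shared by several related transcripts, while those of Di19-2 and MPK14 and the antisense-design set of MAPKKK do not carry it. Upland cotton is an allotetraploid, with an A and a D copy of most genes, and the array values cannot be divided between copies. None of the 46 probe sets that the gene table pairs with several genes holds 1 of the 6 genes, and no further probe set of their sequence clusters is on the array. RefSeq lists 3 transcripts each for NHX1 and MPK14, 2 for Di19-2 and 1 each for Di19-1, pldd and MAPKKK, and the array gives no value per transcript.

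Other genes of the same pathways were taken by older name. These lists, the added pump list included, were chosen with earlier results of these data known. Their values and p-values are therefore a description and no independent test. Among 3 further MAP kinase genes the median was 0.55: 2 rose, none fell, and MPK23 (-0.06, limma adjusted p = 0.578) missed the threshold. MPK3 (LOC107959059), a MAP kinase that in Arabidopsis responds quickly to stress, rose by 0.59 on its first probe set (SE 0.14, limma adjusted p = 0.00664), with values of 0.71, 0.12 and 0.39 in drought against -0.12, -0.17 and -0.26 in control. The spread of its drought arrays was wide, and drought replicate 1 was the high array. All 6 of its probe sets passed as higher, from 0.31 to 1.46, 2 of them of antisense design. The antisense-design probe set with 0.31 had overlapping groups, with -0.01 in drought replicate 1 against 0.01 in control replicate 2. Of all tested probe sets, 35.3% passed as higher. Another locus, LOC107903096, whose older names are MPK3 and MPK6, rose by 0.55 (SE 0.09, limma adjusted p = 0.000655). With the hybridisation spike-ins at 0 that increase was 0.30 and no longer passed. The probe set of this locus carries the suffix _x_at, and whether it also reads other transcripts was not tested.

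In the salt and calcium branch, SOS2, a protein kinase that in Arabidopsis switches on sodium-proton exchange, rose by 0.65 (SE 0.08, limma adjusted p = 0.000177). Its values were 0.42, 0.24 and 0.26 in drought, against -0.38, -0.39 and -0.24 in control. The 3 calcineurin B-like genes CBL1, CBL2 and CBL3, whose proteins sense calcium and bind kinases of the SOS2 family, did not pass. Their differences were 0.10, -0.07 and -0.02, with limma adjusted p-values of 0.364, 0.389 and 0.836, and all had overlapping arrays on these first probe sets. The other CBL1 probe set gave 0.25 (limma adjusted p = 0.0641), which also missed the threshold, with all drought arrays above all control arrays. CBL2 passed as lower after quantile normalization (-0.19) and with hybridisation spike-ins at 0 (-0.32). KT, named as a potassium transporter, gave 0.07 (limma adjusted p = 0.426). The pattern for KT also matched KTN1, the microtubule-severing katanin and no transporter, which fell by 0.33 (SE 0.07, limma adjusted p = 0.00379).

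The vacuolar proton pumps supply the gradient that NHX1 uses, and 4 of their genes were listed after the gene names had been read. VP, the vacuolar pyrophosphatase, rose by 0.70 (SE 0.09, limma adjusted p = 0.000262), with values of 0.23, 0.49 and 0.46 in drought against -0.27, -0.42 and -0.23 in control. Among subunits of the vacuolar ATPase, DET3 rose by 0.38 (SE 0.07, limma adjusted p = 0.00156) and cva69.24, the catalytic subunit, by 0.24 (SE 0.07, limma adjusted p = 0.0214). VATE gave -0.01 on its first probe set and did not pass (limma adjusted p = 0.887), while its other probe set rose by 0.29 (SE 0.07, limma adjusted p = 0.00564). With hybridisation spike-ins at 0 neither DET3 (0.14) nor cva69.24 (-0.0064) passed, and cva69.24 also missed the threshold under the other scalings (0.12 to 0.18) and without any 1 of the control arrays (0.23 to 0.25). So 3 of the 4 rose on first probe sets as deposited, none fell, and the median was 0.31. Of all tested probe sets, 35.3% passed as higher, and with 4 genes nothing is read from this count.

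Of 6 genes listed for abscisic acid and dehydration response, the median was 0.97, and 4 rose, none fell and 2 missed the threshold. Of the late embryogenesis abundant protein genes, Lea5-D rose by 4.29, or 19.5-fold, and Lea14-A by 0.99. The AP2 factor gene CBF15 (also DBP2) rose by 0.98 and CBF20 (also DREB1C) by 0.96. CBF17 was 1 of the 2 that missed it, with 0.15 on its first probe set (limma adjusted p = 0.285), while its other probe set rose by 0.38 (SE 0.07, limma adjusted p = 0.00113). No further phospholipid signalling gene was found by name, and the zinc finger gene ZFP1 gave -0.20 (limma adjusted p = 0.128). It passed as lower with array medians at 0 (-0.29), after quantile normalization (-0.30), with hybridisation spike-ins at 0 (-0.44) and without control replicate 1 (-0.28). Over the 16 genes found by name outside the added pump list, 7 rose, 1 fell and 8 did not pass; the 1 that fell is the katanin gene KTN1, matched by its letters alone. By comparison, 35.3% of all tested probe sets passed as higher.

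**Figure D4:**
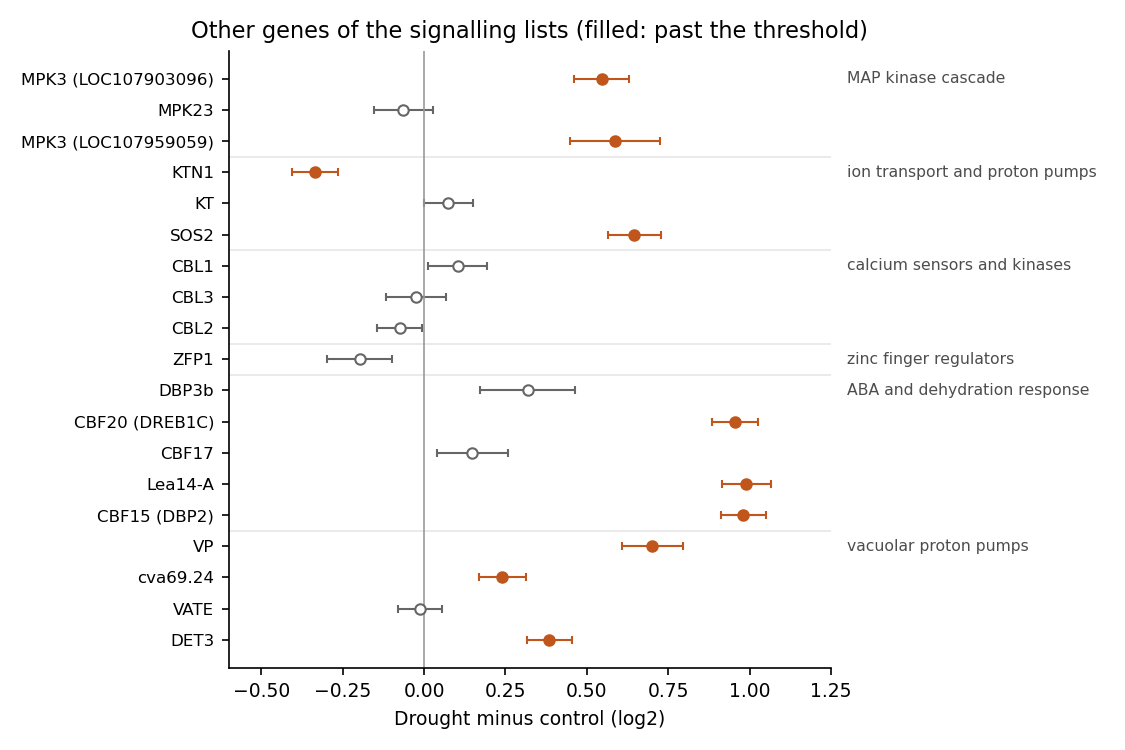
Drought minus control difference (log2) with its SE (n = 3 arrays per group) for genes of the signalling lists on their first probe sets, filled where the limma adjusted p passed 0.05; Lea5-D, at 4.29, is beyond the axis and not drawn. SOS2 and both MPK3 loci lie to the right of 0, and CBL1, CBL2 and CBL3 lie near it.

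The named genes most like each of the 6 were found as those with the smallest root mean square distance over the 6 arrays, among 240 other genes with an older name. They were POX5 for NHX1 (distance 0.097 log2 units), MYB5 for MAPKKK (0.0983), CBF15 for pldd (0.0681), ACS1 for Di19-1 (0.0766), CPR1 for MPK14 (0.0421) and ACO3 for Di19-2 (0.02). The runner-up was almost as close for MPK14, at 0.0451. With 3 arrays a group this likeness is mostly that of the group difference.

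Tissue identity could not be checked by level, because centred values hold none. Of the leaf markers listed, RCA1, Rubisco activase, rose by 0.60 (SE 0.07, limma adjusted p = 8.33e-05), and rbcS, CAB and LHCB were not found by name. Of 5 fibre markers 4 fell, with differences from -4.78 to -3.07, and Fb2 rose by 0.47; both flower markers fell (MADS-1, -4.21, and SEPALLATA3, -1.56), and none of 3 seed markers passed. The part of these shifts in the values of the 6 genes was not tested. The array also has 52 reporter probe sets for sequences that cotton lacks, and 9 of them passed; their median difference was 0.09 and their largest 0.51 in size. The difference of Di19-2 is within that range, and those of the other 5 genes, as deposited, are above it.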

How the data were processed

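Leaf RNA of 3 drought and 3 control samples was hybridised to 1 Affymetrix cotton array each. The authors deposited log2 values made with RMA, per the submitters' processing notes; its version and the way the values were centred per probe set are not given in the sources used here. Genome positions and sequences are not shown, since the sources used here name no build for the array. Higher is read as more signal. Medians of the deposited columns over the tested probe sets were 0.0817, 0.0294 and 0.0459 in drought replicates 1, 2 and 3, and -0.0472, -0.0459 and -0.0367 in control replicates 1, 2 and 3. On these centred values, drought and control arrays correlated across probe sets at r of -0.945 to -0.935, and arrays of the same group at 0.913 to 0.944. The centring removes what all arrays share, so these values mostly hold the difference between the groups.

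Of 24132 probe sets, 103 Affymetrix controls were kept out and 24029 tested on all 6 arrays without a block (limma 3.58.1, functions lmFit and eBayes, under R 4.3.3), with Benjamini-Hochberg adjustment over all tested and a threshold of 0.05. Every SE of a difference for a single gene is from that fit; an SE between 2 genes is from the pooled variance of their within-array differences. The fit was tested on simulated data with independent noise and few changed probe sets. These data differ in both, so that test does not check the calls made here. The number of arrays limits the precision, and p-values reflect only how these samples vary. Genes were named from GEO's platform table and RefSeq older names (assembly Gossypium_hirsutum_v2.1); 697 probe sets have 1 gene, 46 several and 23286 none. Genes with several probe sets were read from the first by sense before antisense design, suffix and ID.

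The members and lists were chosen with earlier results of these data known. The text names the 6 genes on all their probe sets, genes of the name lists and the nearest named gene of each. Same-numbered drought and control arrays deviated from their group means with r of 0.0326, 0.0453 and 0.0741 across probe sets. Arrays with different numbers gave lower values, from -0.0536 to 0.00707. All were small and the labels state no pairing, so the replicate numbers were not taken as pairs.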

Additional observations from a re-analysis of the deposited data

Results flagged for a closer look

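The 27 hybridisation spike-in probe sets, which measure control RNAs added in fixed amounts and no leaf transcript, had array medians that were higher in drought by 0.247 log2 units. Their array medians were 0.19, 0.25 and 0.01 in drought replicates 1, 2 and 3, against -0.14, -0.01 and -0.13 in control replicates 1, 2 and 3, so the groups did not overlap. Of the 7 probe sets of the 6 genes, that of Di19-2 (0.19) had a smaller difference.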

How the results depend on the processing

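The 7 alternatives for the 6 genes were run as 12 fits, 6 of them leaving out 1 array. Between 6 and 7 of the 7 probe sets passed as higher, and the one lost was that of Di19-2. As the genes were selected on this contrast, nothing is read from that count. Over all probe sets, 11244 to 13297 changed, 11878 to 13092 when 1 array was left out; with hybridisation spike-ins at 0, 3989 were higher instead of 8485. Listed genes that rose numbered 6 to 8, and 8 with the mean of all probe sets of a gene. Listed genes that fell numbered 1 as deposited, 3 after quantile normalization and with hybridisation spike-ins at 0, and 2 with array medians at 0 and without control replicate 1. With the replicate number as a block, a fit with fewer residual degrees of freedom, 13244 probe sets changed. Of the 7, 6 passed, without Di19-2. The labels do not say whether same-numbered arrays share more than a number.

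Signs turned for small differences only; the cause was not tested. With hybridisation spike-ins at 0, Di19-2 was -0.056, KT -0.17, CBL1 -0.14, CBF17 -0.10 and cva69.24 -0.0064. KT was -0.021 with array medians at 0 and -0.040 after quantile normalization, where CBL1 was -0.0099. Leaving out 1 array gave -0.15 to 0.0014 for MPK23 and -0.033 to 0.015 for VATE, positive without drought replicate 2, and -0.12 to 0.023 for CBL3, positive without drought replicate 2 or 3 (0.019). DBP3b passed without control replicate 3 alone (0.48). The promoter motif counts were not run, since no promoter sequences were used here. Filters on dim probe sets were not run because centred values hold no level.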
